A study of Mus musculus with 8 samples.

Results

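Genes for the calcium, potassium and proton channels of lymphocytes were followed in resting B cells and T cells of the mouse. The 10 genes, of 53801 gene IDs in the count tables, were taken from a list of channel genes by name: Cacna1i, Orai1, Orai2, Stim1, Stim2, Kcna3, Kcnn4, P2rx7, Hvcn1 and Tctn1. Tctn1 does not encode a channel and was included because its gene overlaps that of Hvcn1. All 10 were matched by Ensembl ID.

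The B cells and the T cells both came from the spleens of B6 mice, were purified with magnetic sorting kits and spent 2 hours in complete RPMI medium before harvest, so the culture was shared by both groups. No stimulus or gene deletion is named for either cell type, and the sources used here give no age for the mice. RNA-seq gave the mRNA. Ribosome profiling gave the footprints, which are stretches of mRNA shielded by a ribosome when the lysate is digested with nuclease. The cells for it had 15 minutes in cycloheximide, at 100 µg/ml, which arrests ribosomes on the mRNA. Each cell type had 2 libraries per assay: B cell libraries 1 and 3 in both assays, T cell libraries 1 and 2 for footprints and T cell libraries 1 and 4 for RNA-seq.

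Summed over genes, the footprint counts were 236810 and 232568 in B cells, against 627833 and 136433 in T cells. The RNA-seq counts were 9466190 and 8989740 in B cells, against 10050986 and 8945905 in T cells. Levels are in CPM, counts relative to the library total after TMM scaling within each assay. Before that scaling, 1 count stood for 1.59 to 7.33 CPM in footprints and 0.0995 to 0.112 CPM in RNA-seq. The labels were checked on marker genes. The 10 B cell markers summed to 10742 and 10966 CPM in B cell RNA-seq, against 79.9 and 169 CPM in T cell RNA-seq. The 10 T cell markers summed to 81.7 CPM in B cell RNA-seq library 1 and 561 CPM in library 3, against 4842 and 5064 CPM in T cell RNA-seq, so B cell library 3 held more T cell transcripts than library 1. In footprints the B cell markers summed to 15981 and 10782 CPM in B cells, against 191 and 718 CPM in T cells. The T cell markers summed to 84.5 and 225 CPM in B cell footprints, against 5926 and 4022 CPM in T cell footprints. B cell footprint library 3 and T cell footprint library 2 thus held more of the other cell type's transcripts than the other library of their group. The part of these transcripts in the comparisons was not tested, and the footprint calls are given without each of these libraries below.

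Lymphocytes raise cytosolic calcium after antigen receptor signalling mainly by store-operated entry. STIM proteins sense the emptying of the endoplasmic reticulum and open ORAI channels in the plasma membrane. Potassium channels keep the membrane potential negative and so sustain the electrical drive for calcium entry, and the calcium rise activates calcineurin and NFAT. P2X7 is opened by extracellular ATP. The voltage-gated proton channel lets protons leave the cell and compensates the charge moved by the NADPH oxidase.

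The 300-base promoter windows of 3 members that differed strongly between the cell types are printed from the RefSeq table of GRCm38.p6, from 250 bases before to 50 bases after the annotated start, 5′ to 3′ on the strand of the gene. Capitals mark matches, on either strand, to 6 short motifs that were searched: CCCNNGGG (the core of the B cell factor EBF1), GAGGAAG (ETS), TGTGGT (RUNX), CTTTGA (TCF/LEF), GGAAAA (NFAT) and CACGTG (the E-box bound by MYC). The windows are Cacna1i at chr15:80286988-80287287, Kcnn4 at chr7:24370013-24370312 and the first listed start of P2rx7 at chr5:122643677-122643976, all on the plus strand. The Kcnn4 window lies wholly inside the RefSeq span of the gene, chr7:24369826-24385212, so its annotated start is not the first base of that span. The Stim1 window, chr7:102267569-102267868, also lies inside the span of its gene, chr7:102261514-102437319.
Cacna1i: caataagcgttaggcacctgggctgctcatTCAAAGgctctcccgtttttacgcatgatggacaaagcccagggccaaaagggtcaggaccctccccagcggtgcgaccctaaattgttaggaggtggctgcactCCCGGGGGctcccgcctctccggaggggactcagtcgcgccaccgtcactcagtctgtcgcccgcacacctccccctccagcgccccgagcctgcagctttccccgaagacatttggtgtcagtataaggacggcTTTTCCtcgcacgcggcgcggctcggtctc
Kcnn4: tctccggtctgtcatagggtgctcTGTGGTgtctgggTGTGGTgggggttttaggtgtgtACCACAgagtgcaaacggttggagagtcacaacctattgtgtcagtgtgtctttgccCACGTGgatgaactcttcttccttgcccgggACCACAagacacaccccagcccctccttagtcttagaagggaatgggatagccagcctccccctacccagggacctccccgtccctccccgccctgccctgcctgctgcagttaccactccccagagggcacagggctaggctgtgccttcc
P2rx7: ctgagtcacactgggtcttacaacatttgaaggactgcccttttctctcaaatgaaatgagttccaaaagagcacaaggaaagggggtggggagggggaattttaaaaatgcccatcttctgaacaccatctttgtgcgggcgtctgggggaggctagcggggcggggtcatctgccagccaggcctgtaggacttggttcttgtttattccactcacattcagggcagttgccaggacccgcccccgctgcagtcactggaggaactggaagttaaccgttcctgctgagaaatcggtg
The Cacna1i window held 1 match each to the EBF1, TCF/LEF and NFAT letters, which occurred in 13.7%, 16.0% and 23.3% of 32544 promoter windows of this length. The Kcnn4 window held 4 matches to the RUNX letters. A RUNX match occurred in 16.7% of windows and 4 or more in 0.0461%. Kcnn4 also had 1 match to CACGTG, which 7.17% of windows hold. This P2rx7 window held none of the 6 motifs. The window of the second listed P2rx7 start, chr5:122650133-122650432, held 1 match each to the ETS letters, which occurred in 13.4% of windows, and the TCF/LEF letters. Among members not printed, Kcna3 held 3 matches to the EBF1 letters, where 0.498% of windows hold as many, Orai2 held 2 matches to CACGTG (0.599%) and Stim2 held 1 to the EBF1 letters. The windows of Orai1, Stim1 and Tctn1 held none of the 6 motifs. No window was available for Hvcn1, so its promoter was not searched. Cacna1i had 23 CpG sites in its window, Kcnn4 had 6 and P2rx7 had 8, beside a median of 7 over all windows. The windows of Orai1, Stim1, Stim2 and Kcna3 held 36, 38, 39 and 37 CpG sites. A match is a description of letters, and binding was not measured.

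In RNA-seq, 8 of the 10 genes differed between B and T cells by edgeR's quasi-likelihood test at a Benjamini-Hochberg adjusted p under 0.05. Cacna1i, Hvcn1 and Tctn1 were higher in B cells, and Orai1, Orai2, Stim1, Kcnn4 and P2rx7 were lower. Over all 13929 genes tested 18.5% passed, 9.4% higher and 9.06% lower. In footprints 6 of the 10 genes passed the low-count filter. Cacna1i and Hvcn1 were higher in B cells and Orai1 and Kcnn4 lower, where 13.2% of 4771 genes tested passed, 8.38% higher and 4.8% lower. The filter asked for 2 libraries at or above a cutoff of 1.08 CPM in RNA-seq and 42.6 CPM in footprints, before TMM scaling. In RNA-seq 9 of the 10 genes had 2 such libraries in each cell type, and Cacna1i had them in B cells alone. In footprints Hvcn1 and Stim1 had them in each cell type, Cacna1i in B cells alone, and Orai1, Stim2 and Kcnn4 in T cells alone. A gene that passed through the cell type where it is high had a difference built into its being tested. The 4 footprint calls were also made without the low-count filter, at 5.04 for Cacna1i, 3.75 for Hvcn1, -1.68 for Orai1 and -2.44 for Kcnn4. Without B cell footprint library 3 they were 5.10, 3.85, -2.04 and -3.26 in the same order, and without T cell footprint library 2 they were 4.82, 3.75, -1.80 and -2.01, with each still past the threshold. In RNA-seq the libraries of the cell types did not overlap for 3 genes that were higher in B cells and 6 that were lower, where 30.0% and 31.2% of all genes tested had such separations. In footprints 25.8% of the 4771 genes tested were separated with B cells higher and 26.3% with B cells lower. With 2 libraries per group, such a separation is therefore common in both assays. The median log2 difference of the 10 genes in RNA-seq was -0.87, beside -0.01 over all genes tested. These genes were chosen with results of these data known, so the counts describe the genes. In bulk libraries, fewer cells that express a gene and less RNA per cell cannot be told apart. Among the marker genes, all 10 B cell markers passed the RNA-seq test, but only 3 of the 10 T cell markers did, at a median log2 difference of -4.19. In footprints all 10 of each passed. A gene that did not pass can therefore still differ between the cell types.

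**Figure D1:**
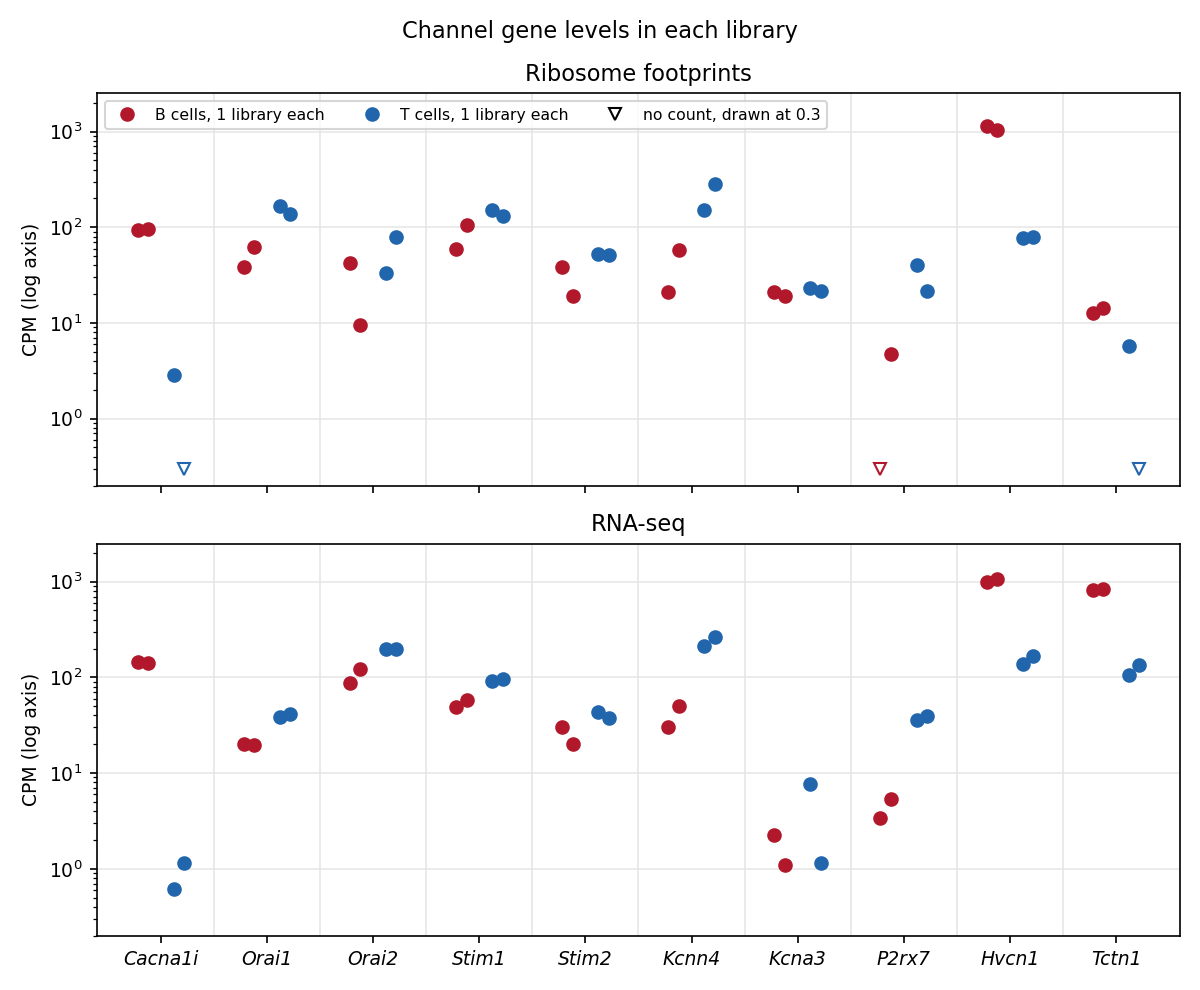
Level of each gene in each library, in CPM on a log axis, with B cells left of T cells and a point for each library, in footprints and in RNA-seq. Open triangles mark libraries with no count. Cacna1i lay at 141 to 145 CPM in B cell RNA-seq and at 0.609 to 1.16 CPM in T cell RNA-seq, while P2rx7 lay at 3.36 to 5.35 CPM in B cells and 35.7 to 39.7 CPM in T cells.

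Cacna1i encodes the pore-forming subunit of Cav3.3, a low-voltage-activated (T-type) calcium channel known mainly from thalamic neurons. Its gene spans chr15:80287238-80398292. Its mRNA had 1297 and 1292 counts in B cells, against 6 and 11 counts in T cells. As levels these were 145 and 141 CPM in B cells, against 0.609 and 1.16 CPM in T cells. The 2 B cell libraries nearly coincided and stood far above both T cell libraries. The log2 difference was 7.32 ± 0.27 (SE, 2 libraries per group, adjusted p = 0.00162). With 1 T cell library below the cutoff, Cacna1i was tested in RNA-seq through its B cell libraries.

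Cacna1i was also read by ribosomes in B cells. Its footprints numbered 22 and 20 in B cells (92.9 and 95.8 CPM), against 2 and 0 in T cells (2.89 and 0 CPM). The fitted log2 difference in footprints was 5.09 ± 0.73 (adjusted p = 0.000791). With 2 T cell counts in all, the ratio of summed counts per total was 34.2, with a 95% interval of 8.89 to 292 that covers counting error only. Cacna1i passed the low-count filter for footprints through its B cell libraries alone, so a difference was built into its being tested. Without T cell footprint library 1 no Cacna1i footprint was left in T cells, and the fitted value of 7.20 is no bound. RefSeq places the lncRNAs Gm31319 and Gm41363 on parts of this gene, and their share of the RNA-seq counts was not tested.

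ORAI1 and ORAI2 are pore subunits of the store-operated calcium channel, and STIM1 and STIM2 are its reticulum sensors. In RNA-seq all 4 had lower values in both B cell libraries than in either T cell library. Orai1, Orai2 and Stim1 passed the test, with fitted levels in B cells 0.494 to 0.572 of those in T cells, and Stim2 did not pass.

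Orai1 (chr5:123015074-123030452) had 19.9 and 19.6 CPM in B cell RNA-seq, against 39.0 and 41.1 CPM in T cells. The log2 difference was -1.02 ± 0.15 (adjusted p = 0.0173). In footprints Orai1 had 9 and 13 counts in B cells (38.0 and 62.3 CPM), against 116 and 19 counts in T cells (168 and 138 CPM). Every B cell library therefore lay below every T cell library in both assays. The footprint difference was -1.64 ± 0.46 (adjusted p = 0.0365), in a gene that passed the filter through its T cell libraries. Both calls were close to the threshold: the RNA-seq call was lost without B cell library 1 (adjusted p = 0.0669) or 3 (0.0837), and the footprint call without B cell library 1 (0.0934), without T cell library 1 (0.198) and in DESeq2 (0.157).

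Orai2 (chr5:136147456-136170697) had 86.8 and 121 CPM in B cell RNA-seq, against 199 and 198 CPM in T cells, a log2 difference of -0.93 ± 0.20 (adjusted p = 0.0391). Its footprints were few, with 10 and 2 counts in B cells (42.2 and 9.58 CPM) and 23 and 11 in T cells (33.2 and 79.7 CPM). The footprint libraries of the cell types overlapped, and Orai2 did not pass the low-count filter. The ratio of summed counts, B over T cells, was 0.575 with a counting interval of 0.271 to 1.14, so no footprint difference was detectable at this depth. The RNA-seq call was lost without B cell library 1 (adjusted p = 0.112), without T cell library 1 (0.0851) or 4 (0.0747), without the low-count filter (0.0616) and with all 8 libraries in a single fit (0.136).

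Stim1 (chr7:102261514-102437319) had 48.8 and 58.6 CPM in B cell RNA-seq, against 90.9 and 96.9 CPM in T cells, a log2 difference of -0.81 ± 0.14 (adjusted p = 0.0237). Its footprints numbered 14 and 22 in B cells (59.1 and 105 CPM), against 105 and 18 in T cells (152 and 130.5 CPM). The groups did not overlap in either assay, a separation that 26.3% of all genes tested in footprints had in this direction. The footprint difference of -0.81 ± 0.44 did not pass the test (adjusted p = 0.312). The RNA-seq call was lost without B cell library 1 (0.111), without T cell library 1 (0.0507) and with all 8 libraries in a single fit (0.0614).

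Stim2 (chr5:53998523-54121057) had 30.6 and 20.1 CPM in B cell RNA-seq, against 43.8 and 38.1 CPM in T cells. Its log2 difference of -0.69 ± 0.25 did not pass (adjusted p = 0.137), and neither did the footprint difference of -0.83 ± 0.57 (adjusted p = 0.450), where B cells had 9 and 4 counts (38.0 and 19.2 CPM) and T cells 36 and 7 (52.0 and 50.7 CPM). The groups did not overlap in either assay.

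**Figure D2:**
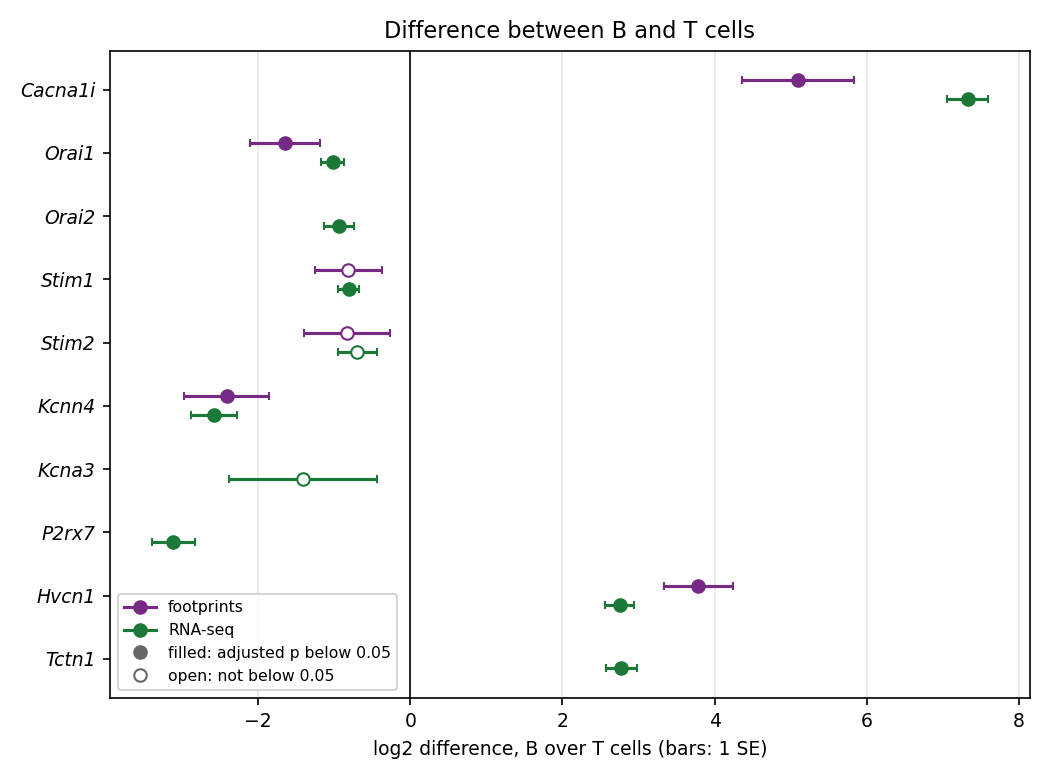
Log2 difference of each gene, B over T cells, in footprints and RNA-seq, with bars of 1 standard error from edgeR, and filled points for an adjusted p below 0.05. Genes below the footprint filter have no footprint point. Cacna1i (7.32 in RNA-seq) and Hvcn1 (3.79 in footprints) lie right of 0, and P2rx7 (-3.11) and Kcnn4 (-2.57), both in RNA-seq, left of it.

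KCa3.1, encoded by Kcnn4, is opened by cytosolic calcium through bound calmodulin, and Kv1.3, encoded by Kcna3, is opened by depolarisation. Both set the membrane potential of lymphocytes. Kcnn4 was lower in B cells in both assays, while Kcna3 had few counts, overlapped between the cell types in RNA-seq and was not tested in footprints.

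Kcnn4 (chr7:24369826-24385212) had 269 and 465 RNA-seq counts in B cells (30.1 and 50.7 CPM), against 2112 and 2534 in T cells (214 and 267 CPM). Its log2 difference was -2.57 ± 0.30 (adjusted p = 0.0106), a level 5.95-fold lower in B cells. In footprints it had 5 and 12 counts in B cells (21.1 and 57.5 CPM), against 104 and 39 in T cells (150.3 and 283 CPM). Both T cell libraries stood above both B cell libraries in each assay. The footprint difference was -2.41 ± 0.55 (adjusted p = 0.0120), in a gene that passed the filter through its T cell libraries. Of the B cell RNA-seq libraries, library 3, with the larger sum of T cell markers, had the higher Kcnn4 level. Without it the difference was -2.99 (adjusted p = 0.00657).

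Kcna3 (chr3:107036162-107038129) had 20 and 10 RNA-seq counts in B cells (2.24 and 1.09 CPM), against 76 and 11 in T cells (7.71 and 1.16 CPM). T cell library 1 was high, and T cell library 4 lay between the B cell libraries. The log2 difference of -1.41 ± 0.97 did not pass (adjusted p = 0.398) and was 0.52 without T cell library 1. Footprints numbered 5 and 4 in B cells (21.1 and 19.2 CPM) and 16 and 3 in T cells (23.1 and 21.7 CPM). Both B cell footprint levels lay below both T cell levels, by less than the level that 1 count stands for. Kcna3 was below the filter for the footprint test, and its ratio of summed counts, B over T cells, was 0.771 with a counting interval of 0.307 to 1.79.

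P2rx7 encodes the ATP-gated cation channel P2X7, which in mouse T cells is known for triggering shedding of CD62L and, on prolonged opening, cell death. The gene spans chr5:122643927-122692336. Its mRNA had 30 and 49 counts in B cells (3.36 and 5.35 CPM), against 352 and 377 in T cells (35.7 and 39.7 CPM). The groups stood far apart. The log2 difference was -3.11 ± 0.28 (adjusted p = 0.00629), a level 8.64-fold lower in B cells. Without B cell library 3 it was -3.48 (adjusted p = 0.00644).

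P2rx7 footprints numbered 0 and 1 in B cells (0 and 4.79 CPM), against 28 and 3 in T cells (40.5 and 21.7 CPM). In B cell library 1 a count of 0 allows a level of up to 12.7 CPM, set by 3 counts. P2rx7 was below the filter for the footprint test. The ratio of summed counts, B over T cells, was 0.0525 with a counting interval of 0.00129 to 0.315. The 6 natural killer marker genes summed to 19.6 and 81.9 CPM in B cell RNA-seq, against 338 and 468 CPM in T cell RNA-seq. In footprints they summed to 67.6 and 556 CPM in B cells, against 838 and 920 CPM in T cells. A T cell fraction could hold natural killer cells, but the cells that these transcripts came from were not identified. The part of natural killer cells in the P2rx7 level was not tested. The 8 macrophage and neutrophil markers did not separate the cell types in RNA-seq, with 85.0 and 205 CPM in B cells and 82.7 and 308 CPM in T cells.

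Hvcn1 encodes the voltage-gated proton channel HV1, known in B cells for its part in reactive oxygen production after B cell receptor stimulation. The gene spans chr5:122206805-122242297. It was higher in B cells in both assays. Its mRNA had 8847 and 9771 counts in B cells (991 and 1066 CPM), against 1368 and 1579 in T cells (139 and 166 CPM), a log2 difference of 2.75 ± 0.19 (adjusted p = 0.00352). Its footprints numbered 272 and 217 in B cells (1149 and 1039 CPM), against 54 and 11 in T cells (78.1 and 79.7 CPM), a log2 difference of 3.79 ± 0.45 (adjusted p = 0.000362). In each assay the B cell libraries agreed closely with each other and lay far above both T cell libraries.

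Tctn1 encodes tectonic 1, a protein of the transition zone of the primary cilium. The gene spans chr5:122239495-122264489 and shares 2803 bases, chr5:122239495-122242297, with Hvcn1. It had almost no footprints, with 3 and 3 counts in B cells (12.7 and 14.4 CPM), against 4 and 0 in T cells (5.78 and 0 CPM). The ratio of summed Tctn1 footprint counts, B over T cells, was 2.44 with a counting interval of 0.579 to 11.8, and Tctn1 was below the filter for the footprint test. Its RNA-seq counts were many and followed those of Hvcn1, with 7242 and 7698 in B cells (811 and 839.7 CPM), against 1043 and 1284 in T cells (106 and 135 CPM). The log2 difference in RNA-seq was 2.77 ± 0.20 (adjusted p = 0.00378).

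Tctn1 had 0.0110 and 0.0138 footprints per Hvcn1 footprint in B cells, against 0.0741 and 0 in T cells. In RNA-seq it had 0.819 and 0.788 counts per Hvcn1 count in B cells, against 0.762 and 0.813 in T cells. The ratio was thus close to constant over the RNA-seq libraries and at or near 0 in footprints. The TruSeq RNA kit named in the labels does not mark strand, and the sources do not say how reads from the shared bases were assigned. The RNA-seq counts of both genes are therefore uncertain.

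**Figure D3:**
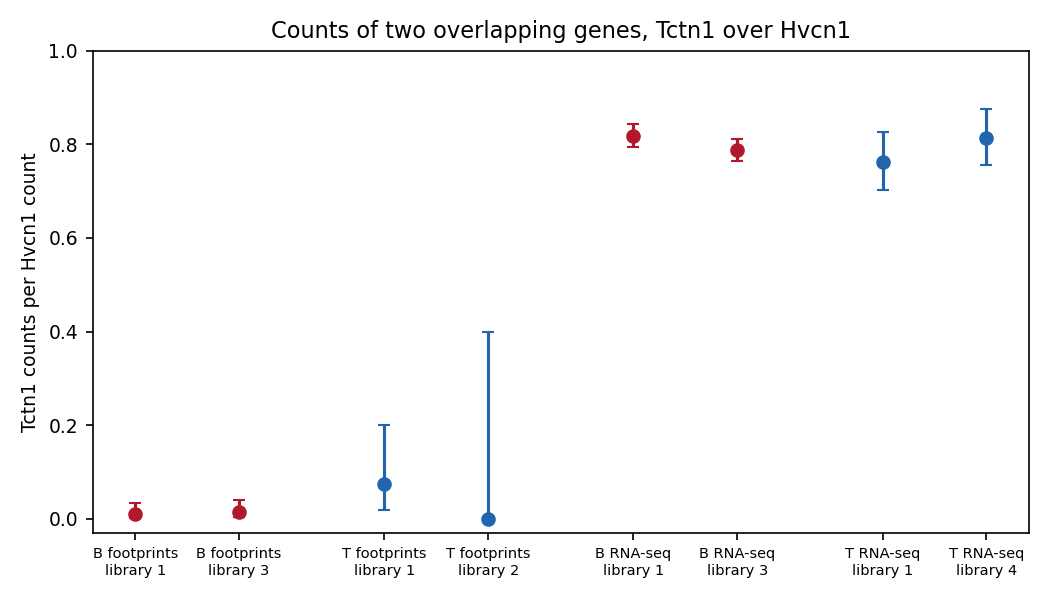
Tctn1 counts per Hvcn1 count in each library, footprints and RNA-seq, with 95% counting intervals and B cells left of T cells. The 4 footprint libraries lie between 0 and 0.0741, and the 4 RNA-seq libraries between 0.762 and 0.819.

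Footprints were then set against mRNA within each cell type, with the 8 libraries fitted together. The all-gene median of this log2 difference was -0.44 in B cells and -0.54 in T cells and moved with the scaling, so the members are also given relative to it. Of the 10 genes, 3 passed in B cells (Orai1 higher, Orai2 and Tctn1 lower), where 18.8% of 13227 genes tested passed, 6.51% higher and 12.3% lower. In T cells 4 passed (Orai1 higher, Orai2, Tctn1 and Hvcn1 lower), where 27.5% passed, 8.91% higher and 18.6% lower.

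Orai1 and Orai2 differed in opposite directions. Orai1 footprints over mRNA were 1.24 ± 0.33 in B cells (adjusted p = 0.0328), or 1.68 above the median, and 1.89 ± 0.26 in T cells (adjusted p = 0.00195), or 2.42 above it. Orai2 footprints over mRNA were -2.05 ± 0.54 in B cells (adjusted p = 0.0319), or -1.61 relative to the median, and -2.15 ± 0.47 in T cells (adjusted p = 0.0123), or -1.62 relative to it. Of the counts of the 2 genes together, Orai1 took 47.4% and 86.7% of B cell footprints and 18.7% and 13.95% of B cell RNA-seq. It took 83.5% and 63.3% of T cell footprints and 16.3% and 17.2% of T cell RNA-seq. These shares are not per length. Footprints mark bases under ribosomes, while RNA-seq can count any part of the mRNA, and no coding or untranslated lengths were at hand. The part of such lengths in the Orai1 and Orai2 values was not tested. In B cells the Orai1 call was lost without footprint library 3 (0.84, adjusted p = 0.325), without RNA-seq library 1 (0.0749) or 3 (0.0936), in limma voom (0.0523) and without the low-count filter (0.0539). The Orai2 call was lost in B cells without footprint library 3 (0.150) or RNA-seq library 3 (0.0876), and in T cells without footprint library 1 (0.233).

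Tctn1 had the lowest footprints over mRNA of the 10 genes, at -6.02 ± 0.45 in B cells (adjusted p = 0.000193) and -4.73 ± 0.50 in T cells (adjusted p = 0.000637), or -5.58 in B cells and -4.19 in T cells relative to the medians. The Tctn1 and Hvcn1 values rest on RNA-seq counts that are uncertain, since it is not known how reads from their shared bases were assigned. Without T cell footprint library 1 no Tctn1 footprint was left in T cells, and the fitted T cell value of -12.3 is no bound. Hvcn1 was at 0.00 ± 0.26 in B cells and -1.04 ± 0.28 in T cells, where the adjusted p was 0.0288. Relative to the medians these were 0.44 in B cells and -0.50 in T cells. The T cell call of Hvcn1 was lost without any 1 of the 2 T cell footprint libraries or of the 4 RNA-seq libraries, with adjusted p from 0.0589 to 0.160.

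Kcna3 had the highest values of the 10 genes by this measure, 3.49 ± 1.06 in B cells (edgeR adjusted p = 0.0524) and 2.28 ± 0.87 in T cells (adjusted p = 0.0835), or 3.93 in B cells and 2.82 in T cells above the medians. Neither passed, whereas both passed in DESeq2 (0.00409 and 0.0469), in limma voom (0.0373 and 0.0431), without the low-count filter (0.0116 and 0.0330) and without T cell RNA-seq library 1 (0.0233 and 0.0212). In B cells it also passed with RLE scaling (0.0479) and without T cell RNA-seq library 4 (0.0146). Its gene spans 1968 bases in RefSeq. Stim1 was at 0.52 ± 0.32 in B cells and 0.54 ± 0.28 in T cells, and Stim2 at 0.11 ± 0.43 in B cells and 0.27 ± 0.35 in T cells. Kcnn4 was at -0.15 ± 0.52 in B cells and -0.34 ± 0.41 in T cells, Cacna1i at -0.69 ± 0.30 in B cells and 1.37 ± 0.91 in T cells, and P2rx7 at -1.03 ± 1.19 in B cells and -0.16 ± 0.43 in T cells. Relative to the medians, Stim1 was at 0.95 in B cells and 1.07 in T cells, and Stim2 at 0.55 and 0.80. In the same order, Kcnn4 was at 0.28 and 0.20, Cacna1i at -0.25 and 1.90, and P2rx7 at -0.59 and 0.37. Kcnn4 in both cell types and P2rx7 in T cells thus lay above the medians. None of these 5 genes passed in either cell type in edgeR, while in T cells Stim1 passed in DESeq2 (0.0423) and Cacna1i in limma voom (0.0485).

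**Figure D4:**
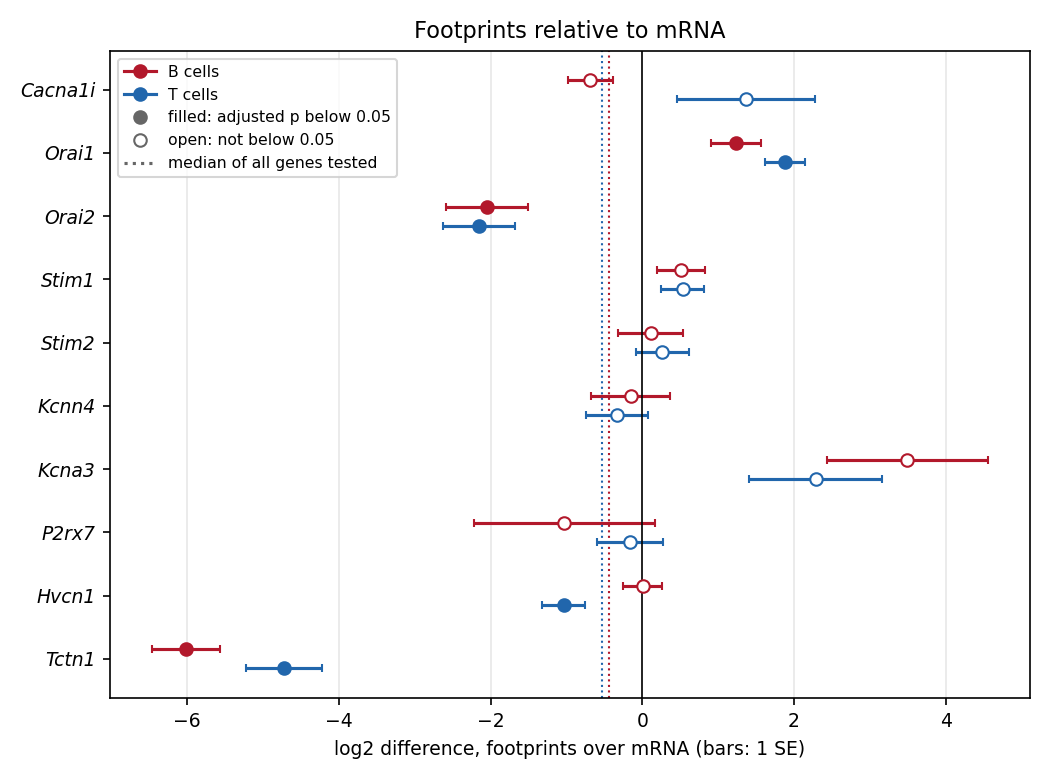
Log2 difference of footprints over mRNA for each gene in B cells and T cells, with bars of 1 standard error, filled points for an adjusted p below 0.05 and dotted lines at the all-gene medians of -0.44 in B cells and -0.54 in T cells. Orai1 (1.24 in B cells and 1.89 in T cells) lies right of these medians in both cell types, and Orai2 (-2.05 in B cells and -2.15 in T cells) and Tctn1 (-6.02 in B cells and -4.73 in T cells) left of them.

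Translational efficiency, tested as the interaction of assay with cell type, showed no call among the 10 genes. None of 13227 genes passed in edgeR (0.0%), 748 had an unadjusted p under 0.05, DESeq2 called 10 and limma voom 0. Hvcn1 had the smallest unadjusted p of the 10 genes, at 0.0249, with a difference of 1.04 ± 0.38 (adjusted p = 0.875). Its adjusted p ran from 0.121 to 1 over 15 alternatives. The differences of Orai1 (-0.65 ± 0.41), Cacna1i (-2.05 ± 0.996) and Tctn1 (-1.29 ± 0.83) had adjusted p of 0.887, 0.885 and 0.891.

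The partners of these channels were read from wider lists, whose counts stand beside the 18.5% of all genes that passed in RNA-seq and 13.2% in footprints. Among voltage-gated calcium channel subunits, 10 of 25 were tested in RNA-seq, 2 were higher in B cells and 3 lower, with a median log2 difference of 0.12. Cacna1e, the pore subunit of the R-type channel, averaged 59.2 ± 8.6 CPM in B cells and 2.46 ± 1.54 CPM in T cells (SD, 2 libraries each), a log2 difference of 4.58 ± 0.47 (adjusted p = 0.00805). Cacna1s, of the L-type channel of skeletal muscle, was also higher (2.54), while Cacna1a, of the P/Q-type channel (-1.98), and the auxiliary subunit Cacna2d4 (-1.99) were lower. Cacna2d4 overlaps Lrtm2. No subunit of this list, which leaves out Cacna1i, passed the footprint filter.

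Of 30 other genes of store-operated entry and calcium stores, 28 were tested in RNA-seq, 5 were higher and 5 lower in B cells, and the median was 0.03. Orai3, the remaining ORAI family member, was higher in B cells, at 50.5 ± 11.8 CPM in B cells and 20.6 ± 4.6 CPM in T cells (1.29 ± 0.26, adjusted p = 0.0342), the opposite direction to Orai1 and Orai2. Saraf, an inhibitor of store-operated entry, was lower in B cells, at 68.9 ± 27.8 CPM in B cells and 582 ± 20 CPM in T cells (-3.08 ± 0.33, adjusted p = 0.00889), and fell in footprints too (-2.35 ± 0.58, adjusted p = 0.0180), where it passed the filter through T cells alone. The reticulum release channels Ryr1 (3.19) and Itpr1 (1.12) were higher. The plasma membrane calcium pump Atp2b4 (-4.10) and the mitochondrial uniporter subunit Mcub (-3.51) were lower, and both passed the filter through T cells alone. In footprints 16 of the 30 were tested, 2 were higher (Itpr1 at 1.48 and the reticulum calcium pump Atp2a3 at 1.47) and Saraf was lower, with a median of 0.46.

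Downstream, 21 of 26 calcineurin and NFAT genes were tested in RNA-seq, with 4 higher, 3 lower and a median of 0.12. Ppp3ca, a calcineurin catalytic subunit, was 2.05 ± 0.12 higher in RNA-seq (adjusted p = 0.00290) and 2.34 ± 0.48 higher in footprints (adjusted p = 0.00622), where it passed the filter through B cells alone. The other catalytic subunits did not pass in footprints, with Ppp3cb at -0.05 ± 0.44 (adjusted p = 0.968) and Ppp3cc at 1.64 ± 0.49 (adjusted p = 0.0503). In RNA-seq Camk2d (1.18) and Nfat5 (0.71) were higher, and Nfatc2 (-1.21), Camk2g (-1.35) and the calcineurin regulator Rcan3 (-2.13) were lower. Camk4, a calmodulin-dependent kinase, had 1 footprint count in B cells, against 96 in T cells, and passed the filter through T cells alone.

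Among potassium channels, 17 of 39 were tested in RNA-seq, 4 were higher and 5 lower, and the median was -1.02. Kcng1 had 116 counts in B cells, against 1 in T cells, with a ratio of summed counts of 119 (counting interval 21.0 to 4756). Kcnj8 (-4.49), Kcnc1 (-4.01) and Kcnmb4 (-2.63) were lower. Kcng1 passed the filter through B cells alone, and Kcnj8 and Kcnc1 through T cells alone, so that part of these differences was built in. A single gene of this list passed the footprint filter.

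Beside P2rx7, 11 of 25 purinergic receptors and ectonucleotidases were tested in RNA-seq, with 2 higher, 3 lower and a median of -0.69. Nt5e, the CD73 enzyme that makes adenosine, was lower in B cells, at 4.31 ± 0.54 CPM in B cells and 46.9 ± 2.2 CPM in T cells (-3.44 ± 0.19, adjusted p = 0.00258). Its footprints numbered 3 in B cells, against 56 in T cells, and passed the filter through T cells alone. In RNA-seq Entpd1, the CD39 enzyme that hydrolyses extracellular ATP, was higher (1.15), as was the receptor P2ry10 (0.75). The adenosine receptor Adora2a (-1.28) and the ATP release channel Panx1 (-0.75) were lower in RNA-seq. P2ry10 footprints went the other way, at 657 ± 39 CPM in B cells and 1554 ± 660 CPM in T cells. That footprint difference of -1.25 ± 0.48 did not pass (adjusted p = 0.126).

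Beside Hvcn1, 21 of 24 NADPH oxidase and proton handling genes were tested in RNA-seq, with 10 higher, 2 lower and a median of 0.37. In footprints 16 were tested, with 5 higher, 1 lower and a median of 0.79. Cybb, the catalytic subunit of the phagocyte NADPH oxidase, averaged 266 ± 62 CPM in B cells and 18.4 ± 0.9 CPM in T cells (3.85 ± 0.23, adjusted p = 0.00284), and 726 ± 77 CPM in B cell footprints and 60.8 ± 26.7 CPM in T cell footprints (3.71 ± 0.48, adjusted p = 0.000474). Ncf1, a cytosolic subunit, was higher in footprints (3.47 ± 0.61, adjusted p = 0.00250), where it passed the filter through B cells alone. The proton pump subunit Atp6v0a1 was higher (3.99) while its paralogue Atp6v0a2 (-0.76) and the sodium-proton exchanger Slc9a9 (-2.89) were lower. Macrophages and neutrophils also express these oxidase subunits. Their 8 markers summed to 460 and 924 CPM in B cell footprints, against 285 and 391 CPM in T cell footprints, and their part in these values was not tested.

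**Figure D5:**
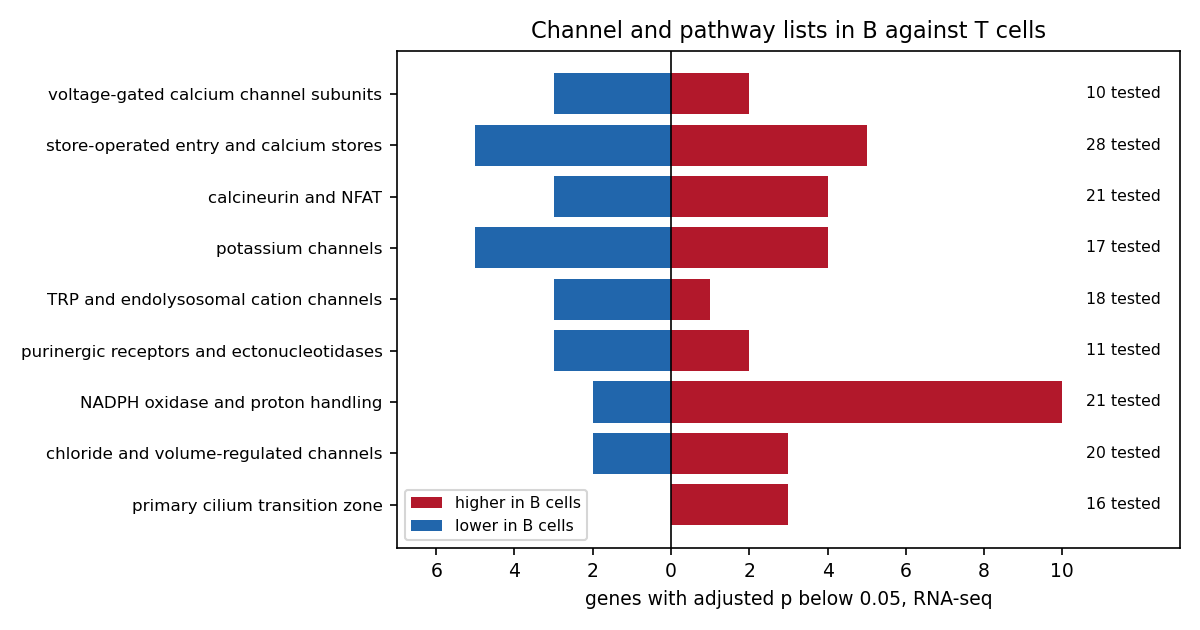
Number of genes of each of the 9 wider lists that passed the test in RNA-seq, with bars to the right for genes higher in B cells, bars to the left for genes lower in B cells, and the number tested at the right edge. The NADPH oxidase and proton handling list has 10 genes higher and 2 lower of 21 tested, and the potassium channel list 4 higher and 5 lower of 17.

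Genes with the profile most like a member over the 8 libraries were found among 7648 genes by the Euclidean distance of centred log2 CPM. Nearest to Cacna1i were Srpk3 (1.11), Lrrk2 (1.35) and Ciita (1.48), where the median gene was at 8.31. Nearest to Hvcn1 were Cnr2 (0.988), Rubcn (1.04) and H2-DMa (1.07), with a median of 4.88. Nearest to P2rx7 were Il2ra (0.609), Tnik (0.718) and Abtb2 (0.742), with a median of 4.17. For Kcna3 no gene came closer than Usmg5 (2.15), followed by Tbc1d15 (2.28) and Vps13c (2.31), with a median of 5.50. The footprint values behind the P2rx7 profile rest on 1 count in B cells and 31 in T cells, which limits its precision. Those behind the Cacna1i profile rest on 42 counts in B cells and 2 in T cells. The Kcna3 profile rests on 9 footprint counts in B cells and 19 in T cells, and on 30 and 87 RNA-seq counts. The precision of the Cacna1i and Kcna3 profiles is therefore limited too.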

How the data were processed

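The deposited values of the authors are whole-number counts per gene, in 1 table per library, per the labels and the values. Per the submitters' processing notes, the tools were HTSeq, TopHat, Bowtie2 and FastQC and the build mm10. Not given in the sources used here are versions, the feature counted, strand use and how overlapping genes were treated. The 53801 gene IDs include 53620 with a symbol. 0 sample columns were left unused.

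Counts were tested with edgeR 4.0.16 under R 4.3.3 (quasi-likelihood, TMM, filterByExpr at min.count 10 and min.total.count 15, Benjamini-Hochberg over all genes tested, threshold 0.05). B cells were set against T cells within each assay, over 4 libraries. Translational efficiency, and footprints over mRNA, came from a model of all 8 libraries. The steps were checked on simulated data. DESeq2 1.42.0 and limma 3.58.1 voom were among the alternatives.

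The members and lists were chosen with earlier results of these data known, and no set test was run. All 10 members are given. From each wider list, up to 3 genes per direction with the largest difference past the threshold and at least 5 CPM in the higher group were named, and some of these are not reported here. Ratios of summed counts, per library total, have exact 95% intervals that, like the floor of 3 counts, cover counting error only. Replicate libraries differed beyond counting noise (chi-square per degree of freedom 6.07 and 20.9 in B cell footprints and RNA-seq, 4.43 and 29.4 in T cells). The sources do not say that they come from separate animals, so p-values measure only how far these libraries spread, which may be technical.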

Additional observations from a re-analysis of the deposited data

How the results depend on the processing

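The B over T cell calls of Cacna1i, Kcnn4 and Hvcn1 in both assays, of P2rx7 and Tctn1 in RNA-seq, and the footprints over mRNA calls of Tctn1 in both cell types and of Orai1 in T cells kept their direction and their side of the threshold under each alternative run. No alternative changed how reads from the bases shared by Tctn1 and Hvcn1 were assigned, so that uncertainty of their RNA-seq counts remains. The count of genes called for translational efficiency was 10 in DESeq2 and 87 with the replicate block, which left 1 residual degree of freedom. The replicate block called 2161 genes for footprints over mRNA in B cells, against 2484 without it. With it Orai1 did not pass there (adjusted p = 0.0742) and Kcna3 did (0.0246). Deviations of same-numbered B cell libraries correlated at 0.00797 over 4660 genes, and no label says that a number marks a shared animal or day, so the libraries were not treated as paired. B cell library 3 nevertheless had higher sums of T cell, natural killer, macrophage and neutrophil, and erythroid markers than library 1 in both assays.

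Leaving out each library gave 1455 to 1973 genes for RNA-seq, 415 to 898 for footprints, 1281 to 2571 for footprints over mRNA in B cells and 947 to 4154 in T cells. The lowest counts for footprints, and for footprints over mRNA in T cells, came without T cell footprint library 1, the deepest. In the same fits values not past the threshold changed sign. For translational efficiency they ran from -2.56 to 4.55 for Cacna1i, -1.51 to 0.74 for Orai2, -0.52 to 0.19 for Stim1, -0.90 to 0.20 for Stim2, -0.69 to 2.00 for Kcna3, -0.73 to 0.59 for Kcnn4, -7.46 to 0.064 for P2rx7 and -1.75 to 6.28 for Tctn1. For footprints over mRNA in B cells they ran from -0.52 to 0.48 for Stim2, -1.05 to 0.38 for Kcnn4, -7.61 to 0.0096 for P2rx7 and -0.11 to 0.088 for Hvcn1. In T cells they ran from -5.28 to 1.91 for Cacna1i, -0.60 to 0.096 for Kcnn4 and -0.93 to 0.18 for P2rx7. Kcna3 in RNA-seq ran from -2.21 to 0.52. The extreme values of Cacna1i, P2rx7 and Tctn1 came where the gene was left with a footprint count of 0 in a cell type.

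Under limma voom the Orai2 translational efficiency was -0.013. Hvcn1 footprints over mRNA in B cells were -0.016 without the filter and -0.0022 without small and mitochondrial RNA genes. P2rx7 footprints, fitted without the filter, were -3.76 ± 1.15 (adjusted p = 0.0187), and -4.03 with all 8 libraries in a single fit (adjusted p = 0.0564). The alternative per coding length was not run, since no lengths were at hand. At the depth of the footprint libraries 4 of the 10 genes were below the filter.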

Other observations

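Further channel and cilium genes gave these values in RNA-seq, B over T cells. Of 33 TRP and endolysosomal cation channels, 18 were tested, 1 was higher and 3 were lower, a share of 22.2% near the 18.5% of all genes that passed. Mcoln2, a lysosomal cation channel, was higher in B cells, at 37.2 ± 5.9 CPM in B cells and 11.4 ± 0.7 CPM in T cells (1.71 ± 0.20, edgeR adjusted p = 0.0102). Trpm1 (-3.70), which passed the filter through T cells alone, the endolysosomal channel Tpcn1 (-0.97), which overlaps Iqcd, and Tmem63a (-0.54) were lower. Of 29 chloride and volume-regulated channel genes, 20 were tested, 3 were higher and 2 were lower, or 25.0%. Tmem206, the proton-activated chloride channel, was higher (1.67 ± 0.23, adjusted p = 0.0144), with Clic4 (1.61) and the endosomal exchanger Clcn5 (1.25). Lrrc8b (-1.57) and Lrrc8c (-1.33), subunits of the volume-regulated anion channel, were lower. In footprints, 4 genes of the TRP list and 7 of the chloride list were tested, and none passed.

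Beside Tctn1, 16 of 19 genes of a list for the primary cilium, mainly its transition zone, were tested. Of these, 3 were higher and none was lower, with a median of 0.38. Their share of 18.8% was near the 18.5% of all genes. Iqcb1 (1.96 ± 0.32, adjusted p = 0.0213) overlaps Eaf2, and B9d2 was at 0.94 ± 0.19 (adjusted p = 0.0344). In footprints 2 were tested and none passed.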
